A study of Homo sapiens with 2 samples.

Results

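The DLX genes are 6 homeobox genes that lie in 3 facing pairs, DLX1 with DLX2, DLX4 with DLX3 and DLX6 with DLX5. All 6 were taken by name from the 64449 genes of the annotation, together with their promoters (1 kb either side of the start of the gene record), their gene bodies and the stretch between the genes of each pair. These regions held 1587 of the 14699127 CpGs that had at least 1 read in both whole-genome bisulfite sequencing (WGBS) libraries. Bisulfite turns unmethylated cytosine into a base read as T, while methylated cytosine is still read as C, so that the share of C reads at a CpG is its methylation level. Both libraries came from HEK293T, a human embryonic kidney cell line. The library titled as negative (Neg) stands for cells that, per the study's results text and figure captions, were not transduced. The dCas9+3A+HOXA5 library came from cells transduced with nuclease-dead Cas9 carrying SunTag (a string of short peptides), with DNMT3A, an enzyme that methylates DNA, joined to an antibody part that binds those peptides, and with a guide RNA against HOXA5, a gene of another homeobox family. Collection was at 30 days after infection, and per the study's methods the transduced cells were sorted for the fluorescent markers of their constructs. The same treatment text stands on both samples, and the title alone separates them. The files hold no expression values, so the identity of the cells could not be read from marker genes.

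DLX proteins are homeodomain transcription factors related to fly Distal-less. DLX1, DLX2, DLX5 and DLX6 act in the forebrain in the development of GABAergic interneurons, DLX5 and DLX6 also in the lower jaw and bone, and DLX3 in epidermis, hair, teeth and placenta, while less is known of DLX4. The genes of a pair are transcribed towards each other, and the stretches between them hold enhancers that both genes use. The CpG-rich promoters of such developmental regulators are often kept free of DNA methylation and held by Polycomb proteins in cells that do not use them. The comparison asks whether the methylation of these genes, which the guide was not designed for, differed between the treated and the untreated library.

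The sequences below are those on which the comparison turns. They are a DLX1 and an intergenic stretch from the tiles called higher below, and the stretch before the RefSeq start of DLX1, DLX2 and DLX6. The latter was nearly free of methylation in both libraries. In the first pair of sequences, capitals mark the CpGs whose level was more than 50 percentage points higher in dCas9+3A+HOXA5. The DLX1 stretch (GRCh37, chr2:172951382-172951681, plus strand) runs from exon 2 into intron 2, and 14 of its 24 CpGs are so marked. The intergenic stretch (GRCh37, chr2:172959001-172959150, plus strand) lies between the genes, where 6 of the 7 CpGs were covered in both libraries and all 6 are so marked.
DLX1 exon 2 and intron 2: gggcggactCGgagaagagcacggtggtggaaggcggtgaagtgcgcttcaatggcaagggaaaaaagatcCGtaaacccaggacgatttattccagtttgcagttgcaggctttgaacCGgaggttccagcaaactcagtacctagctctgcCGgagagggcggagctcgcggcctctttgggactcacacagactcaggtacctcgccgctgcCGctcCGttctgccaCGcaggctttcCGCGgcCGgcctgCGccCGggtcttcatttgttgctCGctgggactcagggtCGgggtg
Between DLX1 and DLX2: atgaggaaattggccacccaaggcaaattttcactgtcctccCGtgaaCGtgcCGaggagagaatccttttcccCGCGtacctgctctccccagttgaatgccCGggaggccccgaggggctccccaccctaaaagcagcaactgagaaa

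The next sequences are the 250 bases before the start of the gene in RefSeq (GRCh38.p14), which had an entry for 3 of the 6 genes. For DLX1 that start lies 767 bp into the gene record, so that its sequence is inside the record and downstream of the start on which the DLX1 promoter window is centred. Each matched GRCh37 exactly once near its gene, at chr2:172949985-172950234 for DLX1 (plus strand), chr2:172967629-172967878 for DLX2 (minus strand) and chr7:96634615-96634864 for DLX6 (plus strand). Here capitals mark every CpG.
DLX1 before the RefSeq start: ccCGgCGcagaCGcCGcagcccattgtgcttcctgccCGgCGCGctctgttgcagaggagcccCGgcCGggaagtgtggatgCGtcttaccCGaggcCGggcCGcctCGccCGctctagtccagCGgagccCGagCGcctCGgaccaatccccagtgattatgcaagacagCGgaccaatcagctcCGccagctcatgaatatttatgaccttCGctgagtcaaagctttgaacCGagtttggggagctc
DLX2 before the RefSeq start: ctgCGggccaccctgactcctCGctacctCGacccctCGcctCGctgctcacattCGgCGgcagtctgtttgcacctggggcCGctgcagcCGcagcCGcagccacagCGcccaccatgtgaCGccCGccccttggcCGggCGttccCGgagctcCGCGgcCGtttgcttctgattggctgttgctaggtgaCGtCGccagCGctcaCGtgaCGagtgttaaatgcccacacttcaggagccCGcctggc
DLX6 before the RefSeq start: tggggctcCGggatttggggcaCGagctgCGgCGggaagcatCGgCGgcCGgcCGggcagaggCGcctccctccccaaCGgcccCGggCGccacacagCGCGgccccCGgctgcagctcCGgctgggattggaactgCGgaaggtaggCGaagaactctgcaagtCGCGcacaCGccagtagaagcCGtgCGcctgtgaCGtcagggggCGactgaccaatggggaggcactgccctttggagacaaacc

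In these 250 bases DLX1 had 1 methylated of 70 reads in Neg and 0 of 30 in dCas9+3A+HOXA5. DLX2 had 0 of 57 and 1 of 53, and DLX6 had 1 of 99 and 0 of 48. None of their 14, 18 and 21 covered CpGs was marked by a gain above 50 points. The letters CCAAT, read on both strands, occurred 2 times in the DLX1 sequence, 1 time in that of DLX2 and 2 times in that of DLX6, while 32.0% of the 35116 RefSeq promoters of this length held them. The palindrome TAATTA, a core to which homeodomains bind, occurred in 0 of the 3 sequences and in 4.35% of all.

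The Neg file listed 23884726 CpGs with a mean of 3.80 reads and the dCas9+3A+HOXA5 file 16170108 CpGs with a mean of 2.89 reads. The mean level of all CpGs covered in both was 63.7% in Neg, and it was 5.81 percentage points higher, at 69.5%, in the treated library. Per CpG of the reference, the treated library had 0.520 times as many reads as Neg over the genome, but 0.405 times at DLX1 and DLX2, 0.477 times at DLX4 and DLX3 and 0.731 times at DLX6 and DLX5. The part of depth in the differences given below was not tested. Each group was 1 library, so there was no replicate error, and Fisher's exact test on summed reads compares these libraries and not the conditions. Reads of a region were summed over its CpGs, so that a read covering several CpGs is counted at each of them. Intervals are Wilson 95% intervals of the share of methylated reads, which take every count as independent. Reads and CpGs on 1 fragment are not independent, so the intervals are too narrow even for counting error.

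At the level of whole promoters no DLX gene changed past both thresholds. A promoter was called where its mean level over CpGs differed by more than 20 points with an adjusted p under 0.01 (two-sided Fisher's exact test, Benjamini-Hochberg over all 53141 promoters with at least 5 covered CpGs). Of the 6 DLX promoters, all tested, 0 were called higher and 0 lower, while 2.31% of all tested promoters were called higher and 0.589% lower. The median difference of the 6 was 0.353 points, against 2.54 points over all promoters tested. Among the 16262 promoters under 20% in Neg, as 5 of the 6 DLX promoters were, 1.56% were called higher and the median difference was 0.994 points. In 3 of the 6, those of DLX3, DLX4 and DLX6, the unadjusted p of Fisher's exact test was under 0.05, as it was in 25.7% of all tested promoters. With 2 kb either side, 4 of the 6 passed the adjusted p but not the threshold of size, while 12.5% of all promoters tested at this width passed the adjusted p. These were DLX1 (13.6 points, Fisher's exact test, adjusted p = 0.000180), DLX3 (-9.90 points, 0.00135), DLX4 (-0.165 points, 0.00556) and DLX5 (4.64 points, 0.00108). As a share of reads DLX4 differed the other way, by 10.2 points. The p-value also depends on the number of reads, and the DLX windows hold more CpGs than most. With 1 kb either side they hold 82 to 123 CpGs, against a median of 32 over all promoters. The shares of all promoters given here were not matched for this, so no excess at the DLX genes can be read from them.

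DLX1 and DLX2 (chr2:172949468-172954405, plus strand, and chr2:172964166-172967628, minus strand; ENSG00000144355 and ENSG00000115844) differed within their pair. The DLX1 promoter had 31 methylated of 276 reads over 72 CpGs in Neg and 22 of 148 in dCas9+3A+HOXA5. Its mean level of 7.69% in Neg stood beside 13.5% in the treated library, 5.85 points higher (Fisher's exact test, adjusted p = 0.565). The DLX2 promoter had 5 methylated of 304 reads over 79 CpGs in Neg and 4 of 273 in dCas9+3A+HOXA5. Its level was 1.27% and 0.886%, a difference of -0.380 points (Fisher's exact test, adjusted p = 1). The intervals of both libraries overlapped at both promoters, and at the minimum of 1 read DLX2 had the lowest level of the 6 in each library. With a minimum of 3 reads the DLX6 promoter was lower, at 0.841% and 0%, against 1.39% and 1.46% at DLX2. Of the covered CpGs, 57 of 72 at DLX1 and 74 of 79 at DLX2 had no methylated read in either library.

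What methylation the DLX1 window held was on its far side. In the 500 bp farthest upstream, 19 of 37 reads were methylated in Neg and 12 of 14 in dCas9+3A+HOXA5. In the 500 bp just before the start the counts were 10 of 73 and 9 of 34. In the 500 bp after the start they were 1 of 90 and 1 of 58, and in the 500 bp after those 1 of 76 and 0 of 42. The start itself was thus nearly free of methylated reads in both libraries, and the higher shares of the treated library lay upstream of it. At a minimum of 3 reads per CpG the difference of the DLX1 promoter was 29.4 points, but this rested on 5 CpGs (Fisher's exact test, adjusted p = 0.541).

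DLX4 and DLX3 (chr17:48045952-48052323, plus strand, and chr17:48067369-48072588, minus strand; ENSG00000108813 and ENSG00000064195) started from different levels. The DLX4 promoter had 26 methylated of 438 reads over 82 CpGs in Neg and 25 of 212 in dCas9+3A+HOXA5. Its level was 7.30% and 9.42%, a difference of 2.12 points (Fisher's exact test, adjusted p = 0.0751). As a share of reads the difference was 5.86 points. Around the start of the transcript tagged as canonical, 602 bp into the gene record, the level differed by 0.392 points over 100 CpGs. There it passed the adjusted p but not the threshold of size (Fisher's exact test, adjusted p = 0.00405). That test compares shares of reads and not this mean over CpGs. Neither the shares nor the number of all promoters passing at this start is given here. The DLX3 promoter had 188 methylated of 280 reads over 63 CpGs in Neg and 105 of 198 in dCas9+3A+HOXA5. Its level of 61.9% in Neg stood beside 51.0% in the treated library, 10.8 points lower (Fisher's exact test, unadjusted p = 0.00225, adjusted p = 0.0223). DLX3 was the only promoter of the 6 above 20% in Neg, and its difference stood at percentile 7.18 of all tested promoters. In this window it passed neither the threshold of size nor that of the adjusted p.

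The DLX3 window was methylated inside the gene rather than before it. From 500 to 1000 bp after the start, 145 of 149 reads were methylated in Neg and 75 of 92 in dCas9+3A+HOXA5. In the first 500 bp of the gene the counts were 38 of 94 and 30 of 83. In the 500 bp before the start they were 3 of 23 and 0 of 17, and farther upstream 2 of 14 and 0 of 6. All 4 of these windows were lower in the treated library. Near the end of exon 1, the CpGs at chr17:48072085, 48072111 and 48072120 had 0 methylated of 7 reads in dCas9+3A+HOXA5, while the CpG at 48072098, between them, had 7 of 7. In Neg these 4 CpGs had 2 or 3 reads each, of which 2 were methylated at every CpG. The treated reads thus gave opposite levels at CpGs a few bases apart with the same depth. Close by, the CpGs at 48072077, 48072128 and 48072132 had 1 of 7, 1 of 8 and 8 of 8 in dCas9+3A+HOXA5. In Neg they had 2 of 2, 5 of 5 and 5 of 5. The CpGs named here lie in the promoter window and are spread over both of its windows inside the gene. How far the lower values there rest on these few CpGs was not tested. With tiles shifted by 250 bp, chosen after seeing the data, the tile that starts at chr17:48071751 and holds these CpGs was called lower, with 126 of 134 and 53 of 94 reads methylated (Fisher's exact test, adjusted p = 1.39e-08), while no tile of DLX3 was called at the original positions. Over the genome 1.07% of the 1030525 tested shifted tiles were called higher and 0.397% lower.

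DLX6 and DLX5 (chr7:96634865-96640352, plus strand, and chr7:96649708-96654262, minus strand; ENSG00000006377 and ENSG00000105880) were alike in that both starts were nearly unmethylated. The DLX6 promoter had 5 methylated of 259 reads over 77 CpGs in Neg and 11 of 182 in dCas9+3A+HOXA5. Its level was 4.41% and 4.55%, a difference of 0.139 points (Fisher's exact test, adjusted p = 0.155). The DLX5 promoter had 49 methylated of 269 reads over 59 CpGs in Neg and 38 of 147 in dCas9+3A+HOXA5. Its level was 15.1% and 15.7%, a difference of 0.568 points (Fisher's exact test, adjusted p = 0.257). As a share of reads the differences were 4.11 points at DLX6 and 7.63 points at DLX5, larger than those of the means over CpGs. A share of summed reads also depends on how the reads of each library are spread over the window.

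At DLX5 the methylated reads lay upstream of the start, with 37 of 40 in Neg and 28 of 31 in dCas9+3A+HOXA5 in the farthest 500 bp and 11 of 18 and 10 of 14 in the next. In the first 500 bp after the start 1 of 99 reads was methylated in Neg and 0 of 41 in dCas9+3A+HOXA5, followed by 0 of 112 and 0 of 61. At DLX6, 10 of the 11 methylated reads of the treated library were in the farthest upstream 500 bp, where it had 36 reads and Neg 7 reads with 2 methylated.

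**Figure D1:**
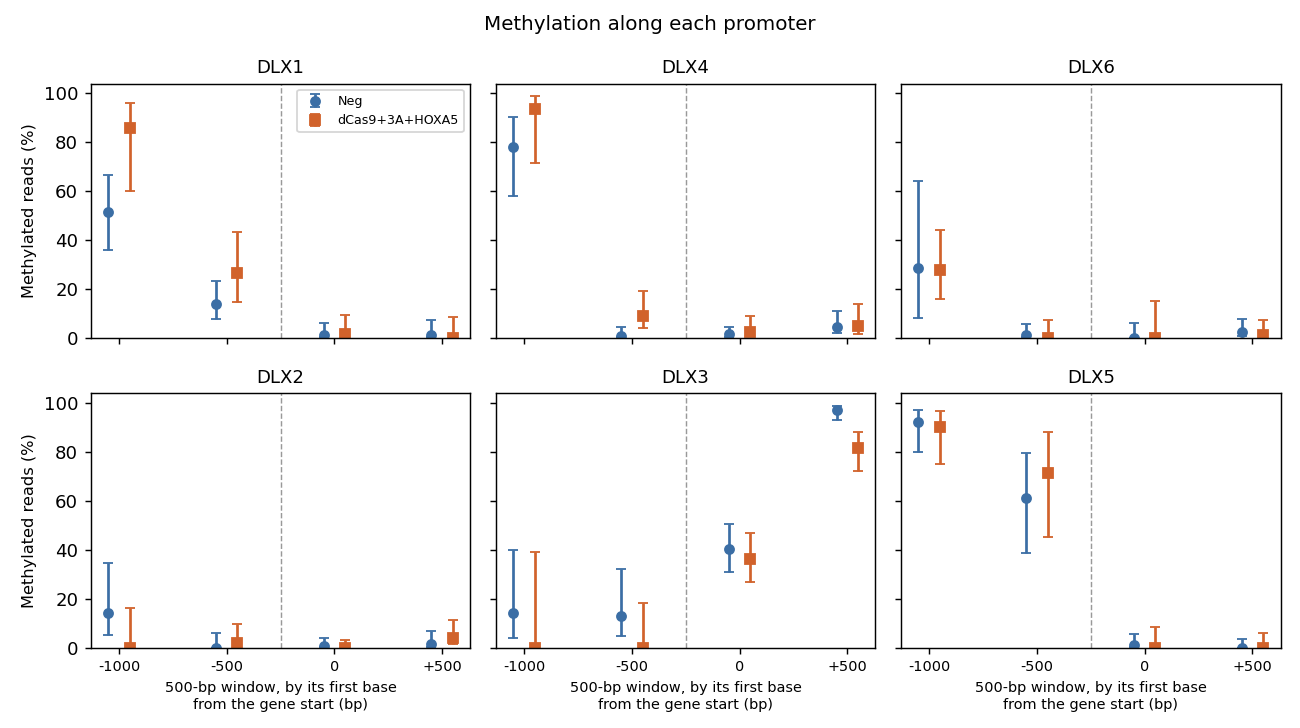
Share of methylated reads (%) in 4 windows of 500 bp along the promoter of each of the 6 DLX genes. The windows cover 1000 bp either side of the gene start (dashed line), and the x axis gives their first base in bp. Neg is shown as blue circles and dCas9+3A+HOXA5 as orange squares. Bars are Wilson 95% intervals, which take every count as independent and are thus too narrow. The window after the start was at or under 2.53% in both libraries at DLX1, DLX2, DLX4, DLX5 and DLX6, while at DLX3 its values of 40.4% (Neg) and 36.1% (treated) were far above this.

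The 6 windows were rich in CpG, with 82 CpGs in the DLX3 window at the low end and 123 in those of DLX1 and DLX2 at the high end, against a median of 32 over 64214 promoters. The ratio of observed to expected CpGs was 0.542 at DLX3 and 0.581 at DLX5, and between 0.649 and 0.784 at the other 4, against a median of 0.298. DLX3, with the fewest CpGs and the lowest ratio, was also the promoter with the highest level in Neg.

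Of the 6 gene bodies, all tested, 0 were called higher and 0 lower, against 3.81% called higher and 0.534% called lower of the 44567 bodies tested. The median difference was 0.897 points, against 4.17 points over all bodies. The DLX1 body had 259 methylated of 698 reads over 163 CpGs in Neg and 216 of 429 in dCas9+3A+HOXA5. Its level was 38.1% and 48.3%, a difference of 10.2 points, which passed the adjusted p but not the threshold of size (Fisher's exact test, adjusted p = 7.54e-05). The DLX5 body had 525 methylated of 804 reads in Neg and 490 of 644 in dCas9+3A+HOXA5, with levels of 62.9% and 66.9%, and it too passed the adjusted p alone (Fisher's exact test, adjusted p = 4.88e-05). The test compares shares of reads, which were 65.3% and 76.1%, 10.8 points apart. DLX5 exon 1, with 1 methylated read in Neg and 0 in the treated library, held 164 of the 804 and 71 of the 644 reads. The part of this in the difference was not tested. Of its exons and introns only intron 1 had an unadjusted p under 0.05 (Fisher's exact test, p = 0.0383). At these 2 of the 6 bodies the intervals of the read shares did not overlap, as at 35.1% of all tested bodies, and 31.5% of all tested bodies passed the adjusted p, so that both shares are near the background. At DLX1 the pass was lost with a minimum of 3 reads per CpG, where the difference was 14.4 points over 35 CpGs (Fisher's exact test, adjusted p = 0.114), and with a minimum of 5 reads, where it was 7.34 points over 7 CpGs (adjusted p = 0.216). At DLX5 it was lost without the first 1 kb of the body, where the difference was 5.43 points over 147 CpGs (Fisher's exact test, adjusted p = 0.401), and with a minimum of 5 reads, where it was -1.6 points over 17 CpGs (adjusted p = 0.242).

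The DLX2 body was the exception to the methylated bodies of the family, with 6 methylated of 573 reads in Neg and 7 of 400 in dCas9+3A+HOXA5. Its level was 0.836% and 1.75% (Fisher's exact test, adjusted p = 0.554), and no exon or intron of it was above 4% in either library. The DLX3 body had 691 methylated of 821 reads in Neg and 383 of 486 in dCas9+3A+HOXA5. Its level differed by -2.26 points and its share of reads by -5.36 points (Fisher's exact test, adjusted p = 0.0419). Without its first 1 kb the DLX3 body differed by 1.08 points (Fisher's exact test, adjusted p = 0.694), so that its direction turns when the start of the gene is left out. The DLX4 body differed by -0.571 points (Fisher's exact test, adjusted p = 0.264) and the DLX6 body by 0.882 points (Fisher's exact test, adjusted p = 1). Read as shares of summed reads both changed sign, to 3.17 points at DLX4 and -0.133 points at DLX6, so that no direction can be given for them.

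**Figure D2:**
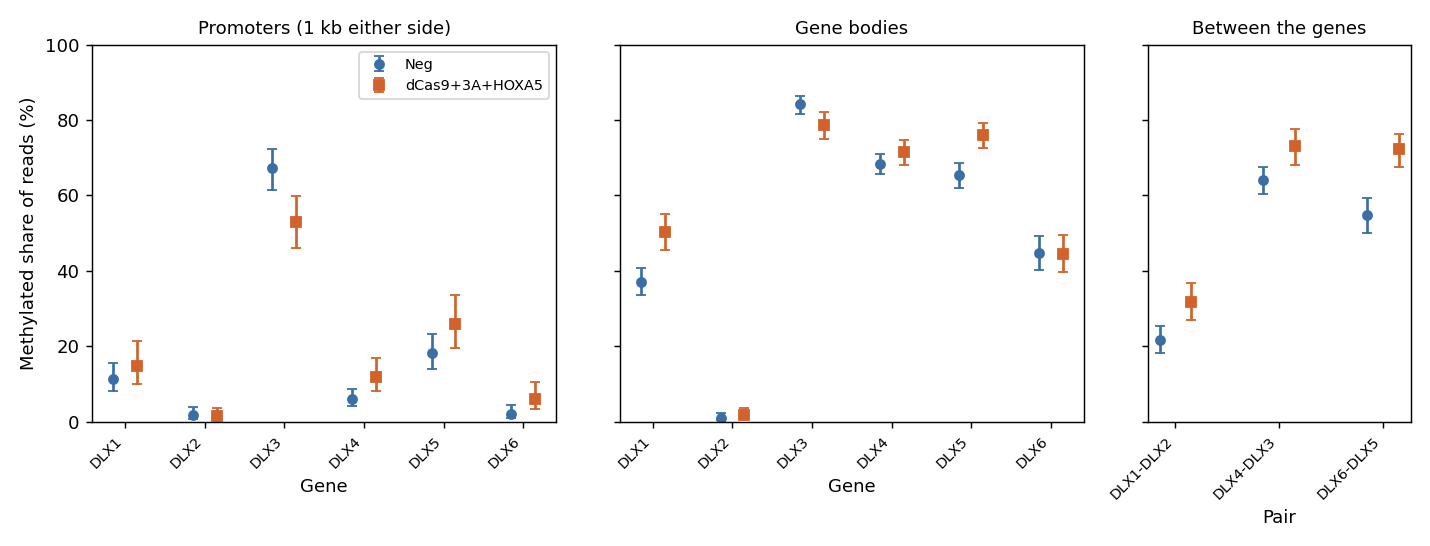
Share of methylated reads (%) in the promoters and bodies of the 6 DLX genes and in the 3 between-gene stretches. Neg is shown as blue circles and dCas9+3A+HOXA5 as orange squares. Bars are Wilson 95% intervals, which take every count as independent and are thus too narrow. The intervals stand apart at the DLX3 promoter (67.1% in Neg, 53.0% in dCas9+3A+HOXA5), the DLX1 and DLX5 bodies and all 3 between-gene stretches; they did so at 14.4% of all tested promoters and 35.1% of all tested bodies, and stretches of this kind were not counted over the genome.

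Within DLX1 the difference was placed in the middle of the gene. Exons are those of the transcript tagged as canonical, which starts 767 bp into the gene record. Exon 1 had 1 methylated of 120 reads in Neg and 7 of 94 in dCas9+3A+HOXA5. Intron 1 had 3 of 68 and 5 of 13, and exon 2 had 1 of 56 and 15 of 31. Intron 2 had 62 of 88 and 92 of 97. Exon 3, at the end of the gene, had 190 of 206 and 96 of 106. Exon 3 was thus above 90% of reads methylated in both libraries, and intron 1, exon 2 and intron 2 were higher in the treated library, by 34.0, 46.6 and 24.4 points of the read share (Fisher's exact test, unadjusted p = 0.00213, 1.45e-07 and 7.95e-06).

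In tiles of 500 bp over the pairs and 20 kb either side, 3 tiles were called higher and 0 lower among the 55 tested at DLX1 and DLX2. Among the 58 tested at DLX4 and DLX3, and among the 55 tested at DLX6 and DLX5, 0 were called in either direction. Over the genome 1.05% of the 1030139 tested tiles were called higher and 0.397% lower. All 3 called tiles were under 20% in Neg, and of such tiles 3 of 38 were called higher at the DLX pairs and 3.16% of 94981 over the genome. The 3 called tiles are 2 neighbours in DLX1 and 1 between DLX1 and DLX2. They rest on few reads, and with a minimum of 3 or 5 reads per CpG in both libraries each held too few CpGs for a test.

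The tile at chr2:172951001-172951500, of intron 1 and exon 2 of DLX1, had 3 methylated of 81 reads over 13 CpGs in Neg and 7 of 16 in dCas9+3A+HOXA5. Its level was 3.78% and 41.0%, a difference of 37.2 points (Fisher's exact test, adjusted p = 0.00617). The next tile, of exon 2 and intron 2, had 3 methylated of 39 reads over 21 CpGs in Neg and 51 of 64 in dCas9+3A+HOXA5. Its level was 11.9% and 78.8%, a difference of 66.9 points (Fisher's exact test, adjusted p = 3.91e-10). Of the 34 CpGs of both tiles 23 were higher and 1 was lower in the treated library, and 14 went from no methylated read to all reads methylated. No CpG had more than 9 reads in Neg or 5 in the treated library. Of these 14, the CpGs from chr2:172951629 to 172951675 had 1 read each in Neg. Those at chr2:172951206, 172951224 and 172951391 had 1 read each in the treated library. The printed stretch of exon 2 and intron 2 lies across the border of these tiles, with 1 methylated of 76 reads in Neg and 52 of 70 in dCas9+3A+HOXA5.

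**Figure D3:**
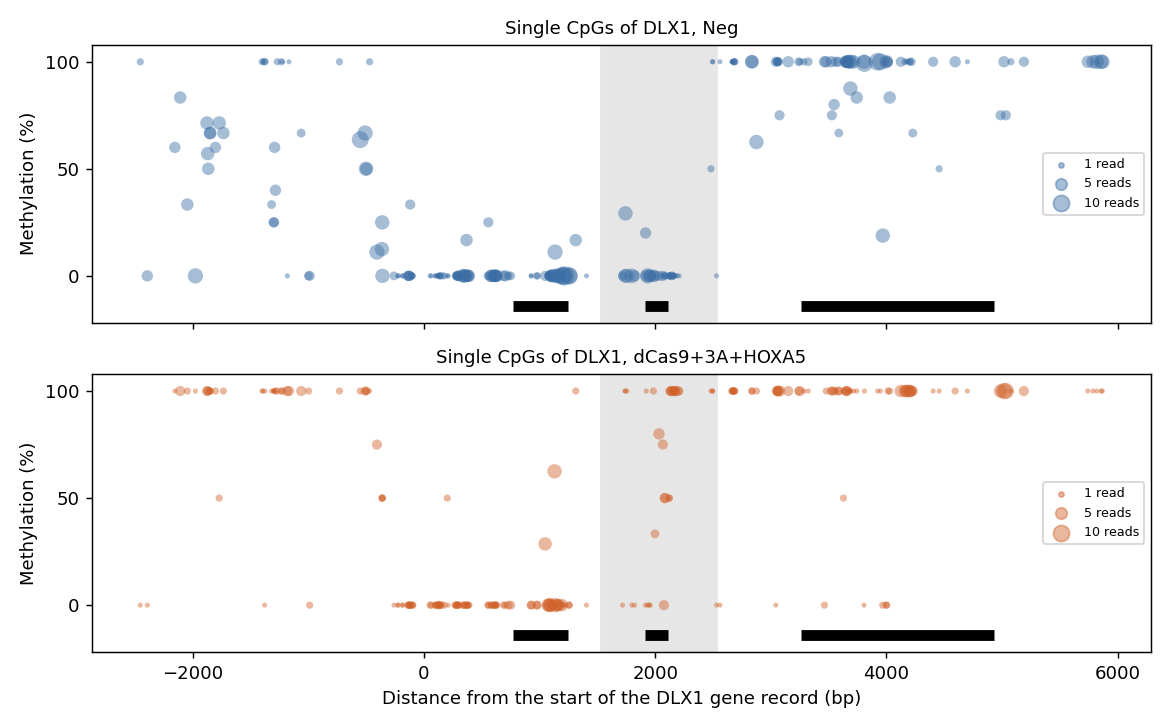
Methylation (%) of single CpGs by distance in bp from the start of the DLX1 gene record, in Neg (above) and dCas9+3A+HOXA5 (below); the area of a point gives the reads on the CpG, black bars are the DLX1 exons and the shaded stretch holds the 2 called tiles. In the shaded stretch 29 of 34 CpGs had no methylated read in Neg, and 18 had only methylated reads in dCas9+3A+HOXA5.

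The stretch of tiles under 20% around the DLX1 start ran over 3.0 kb in Neg and 2.0 kb in dCas9+3A+HOXA5, and it was shorter at the side that runs into the gene. The part by which it was shorter is the 2 called tiles of DLX1, so this restates those calls on the same reads. Around the DLX2 start such a stretch was 5.5 kb long in both libraries and covered the whole gene. It was 1.5 kb in both libraries at DLX4, at DLX5 and at DLX6. At DLX3 the tile of the start was at 23.8% in Neg, just above the limit, and at 0% in dCas9+3A+HOXA5, with 3 of 23 and 0 of 17 reads methylated. The length at 4 of the 6 genes was thus the same in both libraries to the width of a tile.

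All 3 between-gene stretches had higher levels in dCas9+3A+HOXA5, as had 76.4% of all tested bodies and 60.2% of all tested tiles. Their p-values are unadjusted and compare shares of reads, not the levels printed beside them. The 9760 bp between DLX1 and DLX2 had 111 methylated of 515 reads over 175 CpGs in Neg and 109 of 345 in dCas9+3A+HOXA5, with levels of 16.3% and 26.9% (Fisher's exact test, p = 0.00107). The 15045 bp between DLX4 and DLX3 had 419 of 654 and 240 of 328 over 135 CpGs, with levels of 64.6% and 73.1% (Fisher's exact test, p = 0.00493). The 9355 bp between DLX6 and DLX5 had 237 of 433 and 286 of 396 over 136 CpGs, with levels of 56.8% and 65.7% (Fisher's exact test, p = 1.98e-07). The differences were 10.6, 8.51 and 8.84 points, beside 5.81 points over all CpGs in both libraries. With a minimum of 3 reads per CpG the first was 1.56 points over 32 CpGs, and with a minimum of 5 reads the second was -7.74 points over 9 CpGs. By summed reads the third was 17.5 points. The stretch between DLX1 and DLX2 includes the called tile described next, with 0 of 22 reads methylated in Neg and 28 of 31 in dCas9+3A+HOXA5. The stretch and the tile are thus not separate gains, and the stretch without the tile was not tested.

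Between DLX1 and DLX2 the tile at chr2:172959001-172959500 had 0 methylated of 22 reads over 11 CpGs in Neg and 28 of 31 in dCas9+3A+HOXA5. Its level was 0% and 72.7%, a difference of 72.7 points (Fisher's exact test, adjusted p = 7.10e-09). A count of 0 of 22 reads leaves a Wilson upper bound of 14.9% in Neg only if all are taken as independent, which reads on 1 fragment are not. Of its 11 CpGs 8 were higher in dCas9+3A+HOXA5, each with no methylated read in Neg and only methylated reads in the treated library, and the other 3 were equal. The higher CpGs from chr2:172959043 to 172959104 had 1 read each in Neg. Those at chr2:172959443 and 172959449 had 1 read each in the treated library. The 2 neighbouring tiles towards DLX2 were near 0% in both libraries, with 2 of 63 and 0 of 50 reads methylated in Neg and 2 of 34 and 0 of 59 in dCas9+3A+HOXA5. On the side of DLX1 the tile at chr2:172958001-172958500 had 1 methylated of 8 reads in Neg and 6 of 6 in dCas9+3A+HOXA5, which did not pass the test (Fisher's exact test, adjusted p = 0.0850). Beyond the called tile every tested tile up to DLX2 was at or under 10% in both libraries. Of the untested tiles there, with fewer than 5 covered CpGs, that at chr2:172962501 had 7 of 14 reads methylated in Neg and 7 of 7 in dCas9+3A+HOXA5, and that at chr2:172963001 had 8 of 13 and 4 of 4.

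The same stretch holds ENSG00000289413, a long noncoding RNA gene on the minus strand (chr2:172956107-172958383), whose promoter was called higher. It had 13 methylated of 34 reads over 19 CpGs in Neg and 42 of 45 in dCas9+3A+HOXA5, with levels of 29.8% and 89.5% (Fisher's exact test, adjusted p = 1.00e-05). Of these CpGs 6 lie in the called tile described above, with 0 methylated of 6 reads in Neg and 26 of 26 in dCas9+3A+HOXA5, so that both calls share these reads. Each of the 6 CpGs had 1 read in Neg, and these may be 1 fragment counted 6 times. The other 13 CpGs had 13 of 28 and 16 of 19 reads methylated. With a window of 500 bp either side, which left 7 CpGs, the difference was 66.7 points against 59.6, but the adjusted p of the same Fisher's exact test was 0.0310 and the call was lost. With 2 kb either side the difference was 21.5 points over 65 CpGs, just over the threshold of 20, and the promoter was still called (Fisher's exact test, adjusted p = 1.67e-05). None of the 19 CpGs of the original window had 3 reads in both libraries, so the call could not be tested at a higher minimum. The promoter of DLX2-DT, the RNA gene divergent from DLX2, shares the window of DLX2 in large part and differed by -0.395 points, and that of DLX6-AS1, an RNA gene antisense to DLX6, by -2.5 points; neither was called.

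Between DLX6 and DLX5 a stretch of 3 tiles that was low in Neg was higher in dCas9+3A+HOXA5 in each tile, without a call. Neg had 0 methylated of 23 reads, 0 of 30 and 4 of 86, and the treated library 4 of 15, 2 of 17 and 5 of 56. The levels rose from low to high in both libraries over the next tiles towards DLX5. Of these the tile at chr7:96647001-96647500 had 80 of 106 and 93 of 97 reads methylated (Fisher's exact test, adjusted p = 0.00384), and its difference of 18.3 points was just under the threshold of 20. With tiles shifted by 250 bp, chosen after seeing the data, the tile that starts at chr7:96646751 was called higher (32.2 points, Fisher's exact test, adjusted p = 0.000524).

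**Figure D4:**
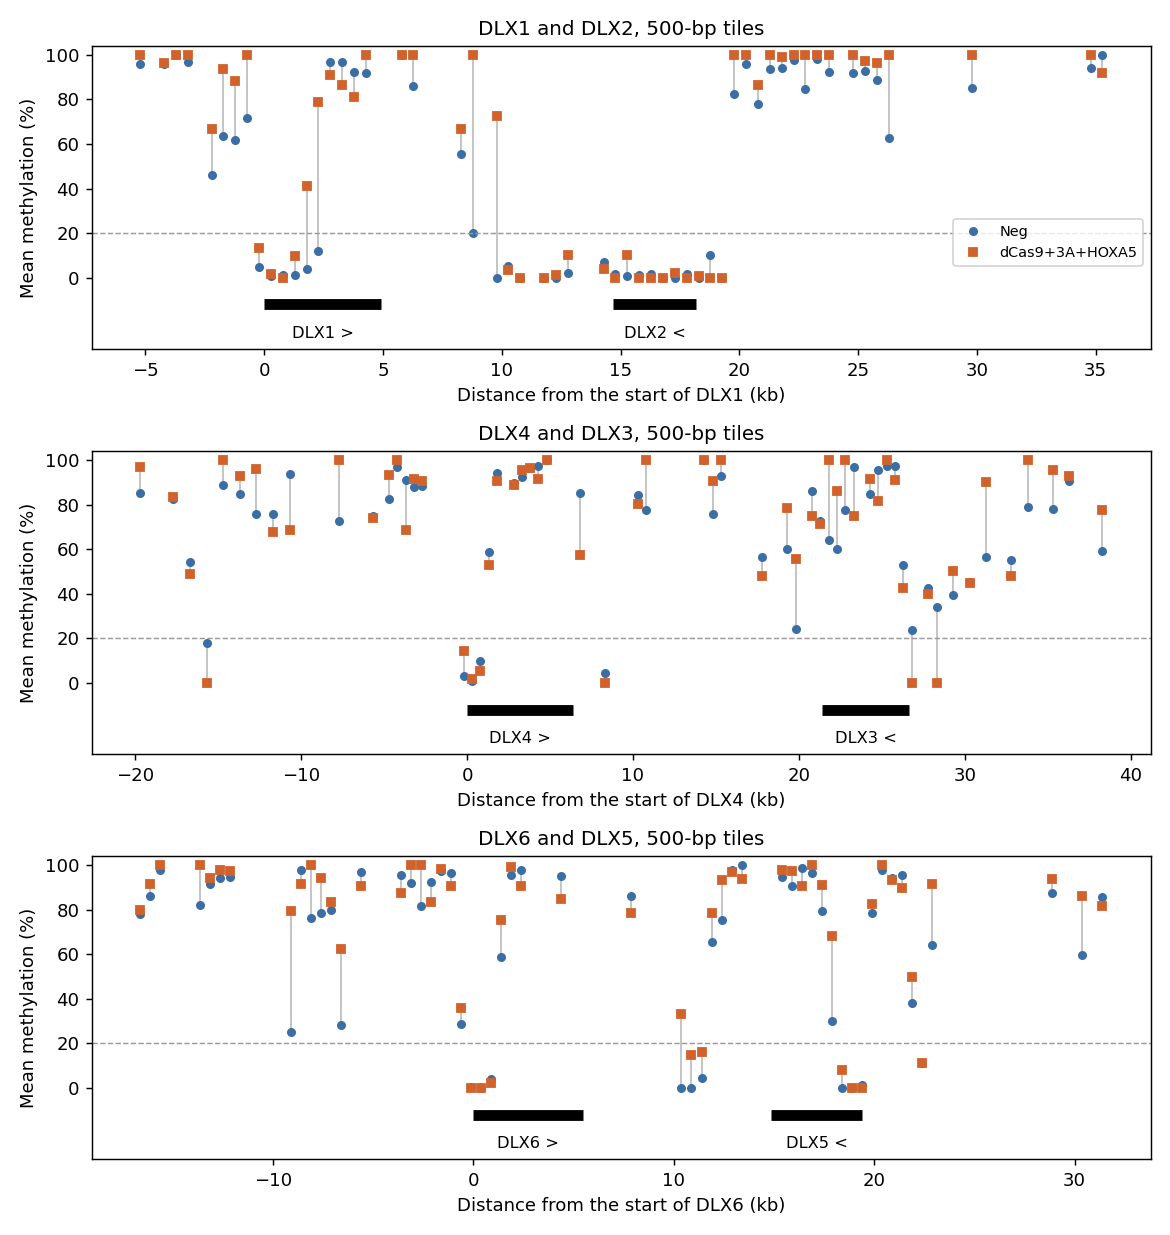
Mean methylation (%) of 500-bp tiles with at least 5 covered CpGs, by distance in kb from the start of the plus-strand gene of each pair, with Neg as blue circles and dCas9+3A+HOXA5 as orange squares joined by a grey line; black bars are the genes with their direction and the dashed line is at 20%. The low stretch at DLX2 stayed at or under 10% in both libraries over 5.5 kb, while the 3 called tiles, in DLX1 and between DLX1 and DLX2, stood at 41.0%, 78.8% and 72.7% in dCas9+3A+HOXA5.

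Tested tiles (at least 5 covered CpGs) of intermediate level in Neg, 20 to 80%, were 50 over the 3 pairs and their flanks. At DLX1 and DLX2 all 8 tested tiles were higher in dCas9+3A+HOXA5 with a median difference of 27.4 points, and at DLX6 and DLX5 all 16 tested tiles were higher with a median of 16.3 points. At DLX4 and DLX3 14 of 26 were higher, with a median of 12.6 points. Of the untested tiles of this level, with fewer covered CpGs, 13 of 16 were higher and 2 lower at DLX1 and DLX2, 5 of 11 higher and 6 lower at DLX6 and DLX5, and 29 of 40 higher and 10 lower at DLX4 and DLX3. Over the genome 71.8% of 441931 tested tiles of this level were higher, with a median of 11.7 points. Tiles under 20% in Neg had a median difference of 0 both over the 38 of the DLX pairs and over the genome. The classes were set on the same Neg values that enter the differences, so these figures are a description only.

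The gains next to the DLX genes were set beside places where the HOXA5 guide could pair. Over the 3 pairs with 20 kb either side, 0 sites matched the 20 bases of the guide before an NGG with up to 4 mismatches, and the best match in each had 6 mismatches. At DLX1 and DLX2 this match lay at chr2:172959601-172959620, 101 bp beyond the end of the called tile between the genes. It was inside the next tile, which had 2 of 63 and 2 of 34 reads methylated. How often a match with 6 mismatches occurs near other tiles was not tested.

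Of 23 genes tied to DLX factors as regulators, partners or targets, 21 had a tested promoter (BMP4 and RUNX2 had too few covered CpGs), of which 0 were called higher and 0 lower, and all 23 had a tested body, with 0 calls in either direction. Of all tested promoters 2.31% were called higher and 0.589% lower, and of all tested bodies 3.81% and 0.534%. At such shares a list of this size may well hold no call. Their median promoter difference was 2.15 points, with 15 higher and 6 lower, beside the 2.54 points over all promoters. The largest gains were at TP63, a regulator of epidermal genes (34.1 points, Fisher's exact test, adjusted p = 0.0811), at GSX2, a homeobox gene upstream of DLX2 in the forebrain (15.2 points, adjusted p = 0.685), and at GAD1, which makes GABA (11.7 points, adjusted p = 0.457). The share of methylated reads at GSX2 went the other way, by -4.43 points. The largest losses were at SLC32A1, the vesicular GABA transporter (39.4% to 26.7%, Fisher's exact test, adjusted p = 5.97e-12), at NKX2-1, a forebrain homeobox gene (-7.30 points, adjusted p = 0.0889), and at HAND2, a jaw and limb regulator (-6.61 points, adjusted p = 4.59e-06). SLC32A1 and HAND2, both lower, and MSX2, a homeobox gene related to the DLX genes, which was higher (6.19 points, Fisher's exact test, adjusted p = 0.00576), passed the adjusted p but not the threshold of size, which was set on the mean over CpGs. As shares of reads they differed by -20.6 points at SLC32A1, -23.9 at HAND2 and 11.4 at MSX2. How many of all promoters of this width passed the adjusted p was not counted, so these genes have no background beside them.

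Of the 9 other genes listed as neighbours of the pairs, all had a tested promoter and 0 were called in either direction, with a median difference of 0 points. Only METAP1D reaches into the 20 kb either side of a pair, so this median does not describe the close surroundings of the DLX genes. Of all tested promoters 2.31% were called higher and 0.589% lower, so that a list this short may well hold no call. TAC1, a neuropeptide gene beyond the DLX6 and DLX5 pair, had 276 methylated of 423 reads in Neg and 211 of 244 in dCas9+3A+HOXA5, and its 19.5 points were just under the threshold of size (Fisher's exact test, adjusted p = 1.14e-07). TAC4, on the chromosome of DLX4 but outside its 20 kb flank, had levels of 60.9% and 83.8% over 13 CpGs. It had 66 of 90 and 42 of 52 reads methylated, and did not pass the test (Fisher's exact test, adjusted p = 0.700).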

How the data were processed

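DNA methylation was measured by WGBS in 2 HEK293T libraries, 1 per group, grouped by their titles. Per the study's methods, the authors trimmed and aligned the reads to hg19 with BSMAP (2.90 in the submitters' processing notes) and called ratios per CpG. How duplicate reads were handled: not given in the sources used here. Per the file headers, the deposited tables hold counts of C and of C or T reads and of the opposite strand's G and G or A reads. They also hold a deposited estimated count, which allows for C-to-T variants seen on the opposite strand, and the authors' methylation ratio as a fraction with its bounds. The methods state a minimum of 5 reads, but the files list CpGs with fewer, and the minimum here was 1 read in both libraries.

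A region's level was the mean deposited fraction over its CpGs. Fisher's exact test (two-sided) on summed C and remaining reads was adjusted by Benjamini-Hochberg over all promoters, bodies or 500-bp tiles with at least 5 CpGs, on GENCODE release 44 mapped to GRCh37, which has hg19 coordinates. The thresholds of 20 points and 0.01 are those the study set for CpG islands. Low stretches were runs of tiles under 20%, in which tiles with fewer than 3 covered CpGs were passed over. Depth was a mean of 3.80 and 2.89 reads per CpG. Scripts used Python 3.11.15, numpy 2.4.6, scipy 1.17.1, pandas 2.3.3, numba 0.67.0, pysam 0.24.0 and matplotlib 3.10.9. The test was checked on simulated promoters whose reads were drawn independently. That check cannot show its rate of false calls where CpGs share fragments. Named were all 6 DLX genes, called genes of the lists of related and neighbouring genes, the 3 largest gains and 3 largest losses of the related genes, and called tiles; MSX2, TAC1, TAC4, other tiles and single CpGs were chosen after their values were seen. The members and lists were chosen with earlier results of these data known. Alternatives were a minimum of 3 or 5 reads, summed reads, uncorrected ratios, other windows and starts, at least 10 CpGs, and tiles shifted by 250 bp.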

Additional observations from a re-analysis of the deposited data

How the results depend on the processing

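Of 81 alternative values for the promoters, bodies and between-gene stretches of the DLX genes, 15 changed sign. Another 2 kept their direction but moved, the DLX1 to DLX2 stretch at 3 reads and the DLX6 to DLX5 stretch by summed reads. The remaining 64 also kept their direction, but 24 of these moved by over 1.5 times, among them the DLX1 promoter at 3 reads (29.4 points) and, by summed reads, the DLX5 and DLX6 promoters (7.63 and 4.11). The 70 values of promoters and bodies gave 0 calls, and the 11 of the stretches had no call rule. With a minimum of 3 reads the DLX2 promoter differed by 0.0688 points, the DLX6 promoter by -0.841, the DLX4 body by 0.536 and the DLX1 to DLX2 stretch by 1.56. With a minimum of 5 reads the DLX2 promoter differed by 4.85, the DLX5 promoter by -1.89, the DLX5 body by -1.6, the DLX6 body by -5.88 and the DLX4 to DLX3 stretch by -7.74, and the DLX1 and DLX6 promoters had 0 CpGs left. By summed reads the DLX4 body differed by 3.17, the DLX6 body by -0.133 and the DLX6 to DLX5 stretch by 17.5. With 500 bp either side the DLX2 and DLX6 promoters differed by 0.0589 and -0.421, and with 2 kb the DLX2 and DLX4 promoters by 1.06 and -0.165. Without its first 1 kb the DLX3 body differed by 1.08. Over the genome, the 1226 promoters called higher became 739 with a minimum of 3 reads and 251 with 5, and the 313 called lower became 103 with 5. The 1700 bodies called higher and 238 called lower became 888 and 127 with 5 reads. The 10845 tiles called higher became 5098 and 1334, or 6009 with at least 10 CpGs, and the 4091 called lower became 2246 and 592. Fewer features could be tested at each higher minimum.

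Tiles shifted by 250 bp, an alternative chosen after seeing the data, gave 5 calls at the DLX pairs, and 11012 higher and 4096 lower of 1030525 tested over the genome. The 5 were 4 higher, at chr2:172947251 (38.6 points), chr2:172951251 (60.3), chr2:172958751 (100, on 1 read at each of 6 CpGs in Neg) and chr7:96646751 (32.2), and 1 lower, at chr17:48071751 (-21.6), across the end of DLX3 exon 1. The calls upstream of DLX1, between DLX6 and DLX5 and at DLX3 thus depend on where tiles begin. No paired analysis was possible because there was 1 library per group, so leaving a library out could not be tried either. Mean depths of 3.80 and 2.89 reads limit what a single CpG or tile can show.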
